A study of Mus musculus with 24 samples.

Results

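Genes that halt the cell cycle or start cell death were followed in the hippocampus of mice given corticosterone overnight. The set held 10 genes, *Cdkn1a*, *Cdkn1b*, *Cdkn1c*, *Cdkn2c*, *Gadd45a*, *Gadd45b*, *Gadd45g*, *Pmaip1*, *Bbc3* and *Fas*, out of 23787 genes that the probes of the array name. Every probe whose transcript belongs to one of them was taken, which gave 12 probes, 2 each for *Cdkn1a* and *Fas* and 1 for each of the other 8 genes. The genes were chosen by their function and by their log2 ratios of corticosterone-treated over control mice at the 3 hours, so those ratios are given here as a description, without a p value and with nothing read from them beyond their size. Comparisons between hours within control mice or within corticosterone-treated mice rest on the same channel signals, and where the control values were nearly flat they largely restate the ratios. So they too are given as a description, with the SE of the fit and without a p value, and are no independent support. The number of member probes that limma called is no test of them and is given beside the share called of all 56605 probes, except where single arrays were left out.

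Cells that sense damage or stress can stop dividing or die, and the transcription factor p53 drives many of the genes that carry out both responses. *Cdkn1a*, *Cdkn1b*, *Cdkn1c* and *Cdkn2c* encode inhibitors of the cyclin-dependent kinases, the Gadd45 proteins are small stress sensors that bind partner proteins, *Pmaip1* and *Bbc3* encode BH3-only proteins that act on mitochondria, and *Fas* encodes a death receptor of the cell surface. Most cells of the adult hippocampus no longer divide, with exceptions among some glia, some vessel cells and the progenitors of the dentate gyrus. Glucocorticoids act there through the glucocorticoid and mineralocorticoid receptors.

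The tissue came from 48 male Swiss-Webster mice, given as 12 weeks old and housed singly, with brothers split between the treatments. Per the paper, mice of about this age were moved to single cages and habituated there for weeks before treatment, so they were older when killed. The mice of a group came from several litters, the labels of the samples do not give the litter of a mouse, and the fit took all mice of a group as independent. Over the 12 h dark phase, corticosterone-treated mice drank water with 100 µg/ml corticosterone and 0.45% hydroxypropyl-β-cyclodextrin, and control mice drank the cyclodextrin vehicle. Mice were killed in the first, the fifth or the ninth hour of the light phase, which is the resting period, with 8 control and 8 corticosterone-treated mice for each hour. Each of 24 two-color arrays held RNA of 1 control mouse in Cy3 and 1 corticosterone-treated mouse in Cy5, unpooled. The dyes were not exchanged on any array, so a constant difference between the dyes cannot be told apart from the treatment at any single hour, whereas it cancels between hours. The arrays lay on 3 slides, with 2, 2 and 4 arrays of the first, the fifth and the ninth hour on slide 1 and 3, 3 and 2 on slides 2 and 3.

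Median spot intensities, taken as the median over the 24 arrays, were 99 in the green Cy3 channel and 156 in the red Cy5 channel. The share of spots that the scanner software marked as well above background was 60.77 to 67.19% in green and 64.01 to 73.45% in red. The number of arrays limits the precision. The markers of hippocampal fields fixed for the check, *Prox1*, *Neurod6*, *Zbtb20*, *Wfs1* and *Dsp*, were well above background in all 8 channels of each of the 6 groups. In RNA of whole tissue, fewer cells of a type and less RNA per cell cannot be told apart.

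*Cdkn1a* encodes the kinase inhibitor p21, a standard target of p53, and lies on chromosome 17. RefSeq lists 2 starts of transcription for it, and its 2 probes are annotated to different transcripts. The promoters of both starts (build GRCm38.p6, plus strand, chr17:29090729-29091028 and chr17:29093519-29093818) are printed with that of *Fas* (plus strand, chr19:34290409-34290708), since *Cdkn1a* and *Fas* were the members with 2 probes. By its brighter probe, each gene also had lower signals in corticosterone-treated mice of the later hours than in those of the first hour. Each promoter runs from 250 bases before to 50 bases after the start, 5′ to 3′, and capitals mark matches to the p53 half-site.
Cdkn1a start 1: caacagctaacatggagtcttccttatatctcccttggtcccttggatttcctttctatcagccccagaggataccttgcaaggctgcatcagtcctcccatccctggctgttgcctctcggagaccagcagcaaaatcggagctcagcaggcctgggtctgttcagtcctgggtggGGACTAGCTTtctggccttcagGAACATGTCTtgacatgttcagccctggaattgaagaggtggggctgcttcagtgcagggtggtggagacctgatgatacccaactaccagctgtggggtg
Cdkn1a start 2: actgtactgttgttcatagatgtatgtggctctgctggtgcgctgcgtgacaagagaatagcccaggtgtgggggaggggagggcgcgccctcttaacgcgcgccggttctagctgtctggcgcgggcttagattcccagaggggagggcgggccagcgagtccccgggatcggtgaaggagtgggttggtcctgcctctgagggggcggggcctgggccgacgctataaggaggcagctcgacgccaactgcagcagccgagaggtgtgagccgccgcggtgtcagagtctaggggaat
Fas: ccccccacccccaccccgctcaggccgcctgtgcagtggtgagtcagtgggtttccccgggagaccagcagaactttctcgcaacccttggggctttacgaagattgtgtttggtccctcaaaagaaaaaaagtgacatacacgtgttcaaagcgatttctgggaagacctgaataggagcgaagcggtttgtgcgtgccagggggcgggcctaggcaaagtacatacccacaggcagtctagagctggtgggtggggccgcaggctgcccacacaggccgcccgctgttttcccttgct
The first *Cdkn1a* promoter held 2 p53 half-sites, which begin at bases 178 and 200, and the other *Cdkn1a* promoter and that of *Fas* held no match. Of 32851 mouse promoters of this length, 8.36% held the half-site on either strand. A match describes the letters and is neither a binding site nor a cause.

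The letters GNACANNNTGTNC, a palindromic glucocorticoid response element, were searched on both strands in the 12 promoters that RefSeq gave for 8 of the 10 members. None of these 12 held them, against 0.475% of all promoters. The half-site AGAACA, which overlaps the palindrome in part, occurred in 1 member promoter, the second of *Cdkn2c*, against 19% of all promoters. The promoter of *Gadd45a* held 1 p53 half-site. No sequence was at hand for the promoters of *Cdkn1c* and *Pmaip1*.

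In the first hour, the brighter *Cdkn1a* probe (A_51_P363947) had a signal intensity of 119 to 167 (median 152) in control mice and 250.4 to 1163 (median 682) in corticosterone-treated mice. Every treated mouse lay above every control mouse, and the spread was wide among the treated mice. The mean was 151 ± 15.2 in control mice and 680.4 ± 271 in treated mice (SD, n = 8). This gave a log2 ratio of 2.06 (SE 0.176), which was positive on 8 of 8 arrays.

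In the fifth hour, *Cdkn1a* ranged from 101 to 139.7 (median 125) in control mice and from 145 to 596 (median 233) in corticosterone-treated mice. The groups again did not overlap, but 2 treated mice, at 443 and 596, lay far above the other 6, which reached 244 at most. Those 2 mice were the fifth-hour treated mice of slide 1, which, per the file headers, was scanned a day before slides 2 and 3 and also holds 4 of the 8 ninth-hour arrays. Over all 8 arrays the log2 ratio was 1.10 (SE 0.176), with slide means of 1.95, 0.66 and 0.99. By the ninth hour, *Cdkn1a* was 98.8 to 145 (median 118) in control and 105 to 165 (median 131) in treated mice, so that the groups overlapped. Its log2 ratio was by then 0.17 (SE 0.176), positive on 7 of 8 arrays.

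*Pmaip1* encodes Noxa, a BH3-only protein that neutralizes the survival protein Mcl1. Its signal in the first hour was 317 to 462 (median 396) in control mice and 547 to 2054 (median 918) in corticosterone-treated mice, without overlap. The log2 ratio was 1.27 (SE 0.11), positive on 8 of 8 arrays. In the fifth hour, control mice ranged from 283 to 470.2 (median 358) and treated mice from 403 to 503 (median 433), and the groups overlapped. Its log2 ratio of 0.30 (SE 0.11) was still positive on 8 of 8 arrays. By the ninth hour the ratio was -0.03, with 289.9 to 389 (median 343) in control and 284 to 394 (median 329) in treated mice.

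*Fas* on chromosome 19 encodes the receptor that binds Fas ligand and recruits the death-inducing complex. Its brighter probe (A_55_P2091676) was dim but well above background in all 8 channels of every group. In the first hour, control mice ranged from 48.3 to 96.5 (median 73.4) and corticosterone-treated mice from 65 to 249 (median 126). The ranges overlapped, yet the treated mouse was the higher one on 8 of 8 arrays, with a log2 ratio of 0.79 (SE 0.145), or 0.50 with an offset of 50 in the background correction. Values of the fifth hour were 43.8 to 86.4 (median 68.8) in control and 48.9 to 72.3 (median 53.4) in treated mice. The log2 ratio was then -0.17, positive on 3 of 8 arrays, and 0.04 without slide 3. Ninth-hour control mice ranged from 51.3 to 124 (median 82.9) and treated mice from 37.7 to 62.1 (median 55.5). All treated mice now lay below 7 of the 8 control mice, with overlap at the last. The log2 ratio was -0.61 (SE 0.145) and was negative on all 8 arrays. With the offset of 50 it was -0.35.

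The same animals stood at the ends for all 3 genes in the first hour. Corticosterone-treated replicate 8 had the highest signal of *Cdkn1a*, *Pmaip1* and *Fas* (1163, 2054 and 249), and treated replicate 5 had the lowest (250.4, 547 and 65). The control mouse on the array of replicate 8 was also the highest of the control mice for *Pmaip1* (462) and *Fas* (96.5).

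**Figure D1:**
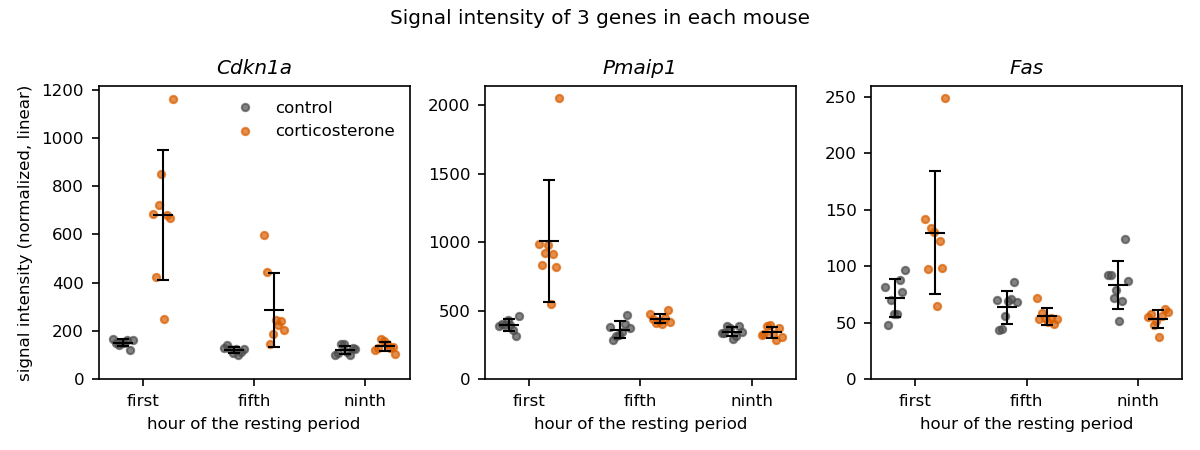
Signal intensity (normalized, linear scale from 0) of *Cdkn1a*, *Pmaip1* and *Fas* against the hour of the resting period. Each point is 1 mouse, grey for control and orange for corticosterone-treated, and black bars give the mean and SD of 8 mice. Treated mice lie above control mice in the first hour without overlap for *Cdkn1a* and *Pmaip1*, and *Fas* in treated mice (median 55.5) lies mostly below control mice (median 82.9) in the ninth hour.

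*Cdkn1b*, which encodes the inhibitor that holds resting cells out of the cycle, behaved differently. In the first hour, it was 2569 to 2982 (median 2746) in control mice and 2353 to 3272 (median 2916) in corticosterone-treated mice, a log2 ratio of 0.04. In the ninth hour, control mice ranged from 1849 to 2666 (median 2161) and treated mice from 2380.5 to 3215 (median 2831). The ranges overlapped, and the treated mouse was the higher one on 8 of 8 arrays, with a log2 ratio of 0.36 (SE 0.0662). In the fifth hour, the log2 ratio was 0.23 (SE 0.0708) over 7 arrays, and it was -0.0045 when the outlier spot of the 8th array was kept.

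*Bbc3* encodes Puma, a BH3-only protein that p53 induces. It was 813 to 1092 (median 958) in control and 791 to 972 (median 936) in corticosterone-treated mice of the first hour. In the ninth hour, control mice ranged from 823 to 984 (median 869.9) and treated mice from 989.7 to 1105 (median 1029). These ninth-hour groups did not overlap, by a narrow margin. The log2 ratio was -0.07 in the first, 0.02 in the fifth and 0.24 (SE 0.0512) in the ninth hour, when it was positive on 8 of 8 arrays.

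*Gadd45g*, a stress sensor on chromosome 13, was 3643 to 4648 (median 4066) in control and 3959.9 to 5493 (median 4263) in corticosterone-treated mice of the first hour. Control mice of the fifth hour ranged from 3534 to 4257 (median 3901) and treated mice from 2838 to 3824 (median 3602). Ninth-hour values were 3508 to 4333 (median 4077) and 3334 to 3839 (median 3515). The groups overlapped at every hour. The log2 ratio was 0.11 (SE 0.0527), positive on 6 arrays, in the first hour and -0.17, positive on 1 array, in the fifth hour. At the ninth hour it was again -0.17, and all 8 arrays were negative.

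The other 4 members kept log2 ratios between -0.12 and 0.28 at the 3 hours, with overlap of the groups at each. *Cdkn2c*, which encodes an inhibitor of the cyclin D kinases, had the highest of these in the first hour, 0.28 (SE 0.0911), positive on 8 of 8 arrays. Its signal was then 105 to 141 (median 128) in control and 130 to 177 (median 149.8) in corticosterone-treated mice. *Gadd45b*, which neuronal activity induces in the hippocampus, had log2 ratios of 0.12, 0.11 and 0.15. *Gadd45a*, the family member that p53 induces, had log2 ratios of -0.09, -0.11 and 0.01. *Cdkn1c*, an imprinted gene on chromosome 7, had log2 ratios of -0.11, -0.12 and 0.03.

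**Figure D2:**
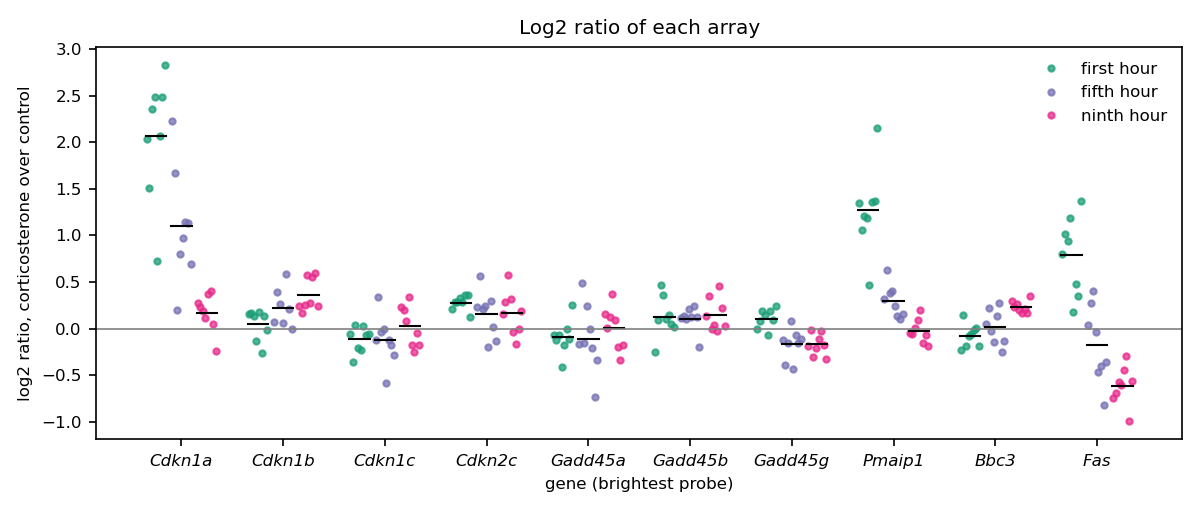
Log2 ratio of corticosterone-treated over control mouse on each array, for the brighter or single probe of each gene. Points are arrays, colored by hour, and black lines are means of 8 arrays (7 for *Cdkn1b* in the fifth hour). *Cdkn1a*, *Pmaip1* and *Fas* have the highest means in the first hour (2.06, 1.27 and 0.79), and *Fas* is below 0 on all arrays of the ninth hour.

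The difference of the log2 ratio between the ninth and the first hour, free of a constant dye effect, is likewise a description. It was -1.89 (SE 0.249) for *Cdkn1a*, -1.40 (SE 0.205) for *Fas* and -1.30 (SE 0.155) for *Pmaip1*. It was -0.28 (SE 0.0745) for *Gadd45g*, 0.31 (SE 0.0724) for *Bbc3* and 0.32 (SE 0.0937) for *Cdkn1b*. For the other 4 genes it lay between -0.12 and 0.14.

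Since the genes were chosen with these contrasts known, the number of member probes that limma called at an adjusted p under 0.05 is no test of them, nothing is read from it, and it stands here only beside the share of all probes called. In the first hour it was 4 of the 12 against 17.5% of all probes, namely *Cdkn1a*, *Pmaip1*, *Fas* and *Cdkn2c*. All 4 were higher with corticosterone, as were 9.04% of all probes, while 8.47% of all probes were lower. In the fifth hour, 3 were called against 18.1% of all probes. *Cdkn1a* and *Cdkn1b* were higher, as were 8.93% of all probes, and *Gadd45g* was lower, as were 9.13%. In the ninth hour, 4 were called against 13.9% of all probes. *Cdkn1b* and *Bbc3* were higher, as were 7.25% of all probes, and *Fas* and *Gadd45g* were lower, as were 6.64%.

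Markers of other cell types also differed between the treatments. The summed signal of the 4 endothelial markers, of which *Flt1* was the brightest, was 9421 in control and 6755 in corticosterone-treated mice of the first hour, a mean log2 ratio of -0.48, lower on all 8 arrays. This log2 ratio was -0.30 in the fifth and -0.13 in the ninth hour. The list did not move as the sum did, with 2 of 6 probes called higher and 2 lower in the first hour, 2 higher and 1 lower in the fifth, and 1 higher and 1 lower in the ninth (list medians -0.03, 0.01 and 0.15). The summed microglial markers, led by *Csf1r*, had log2 ratios of -0.12, -0.11 and -0.06, and 3 of 7 probes were called lower in the first hour and 2 in the fifth. The sum of the astrocyte markers, carried by the brightest gene *Slc1a3*, had log2 ratios of 0.15, 0.05 and 0.04. Most called astrocyte probes went the other way in the later hours, with 2 of 11 higher and 2 lower in the first, and 1 higher and 6 lower in the fifth and again in the ninth (list medians -0.01, -0.22 and -0.23). Markers of oligodendrocyte precursors, led by *Gpr17*, had log2 ratios of 0.12, 0.02 and -0.16, whereas the medians of that list were 0.11, 0.08 and 0.06. Blood markers, led by *Hba-a1*, had log2 ratios of 0.14, 0.29 and 0.03 with an SD of 0.333, 0.447 and 0.465 over the arrays. Neuronal markers, led by *Snap25*, had -0.02, 0.09 and 0.04, and markers of hippocampal fields had 0.00, -0.02 and -0.08. Their part in the values of the members was not tested.

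Within control mice, 1 of the 12 member probes was called between the ninth and the first hour, against 0.518% of all probes. This was *Cdkn1b*, with a log2 change of -0.33 (SE 0.0776). Its control signal went from a median of 2746 to 2161, with overlap between 2569 and 2666. The change was -0.26, -0.36 and -0.38 on slides 1, 2 and 3. The probe was no longer called when any of the 3 slides was left out or when outlier spots were kept.

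*Cdkn1b* in corticosterone-treated mice had medians of 2916, 2868 and 2831 at the 3 hours, and a log2 change of -0.01 (SE 0.0776) from the first to the ninth. Among the brighter or single probes of the other genes, control changes from the first to the ninth hour lay between -0.33 for *Cdkn1a* (SE 0.206) and 0.20 for *Fas* (SE 0.169). None of the member probes was called by limma between the fifth and the first hour in control mice (0 of 12, 1 at an unadjusted p under 0.05), against 0.0053% of all probes. The count was also 0 of 12 between the ninth and the fifth hour (2 at an unadjusted p under 0.05 in limma), against 0.0336% of all probes.

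Within corticosterone-treated mice, 5 of the 12 member probes were called between the ninth and the first hour, against 3.95% of all probes. *Cdkn1a* had a log2 change of -2.22 (SE 0.206), beside a difference of -1.89 between the log2 ratios of these hours. The 8 mice of the ninth hour, at 105 to 165, all lay below the 8 of the first hour. The change was -1.92, -1.96 and -2.78 on the 3 slides, and -2.28 with slide as a block.

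*Pmaip1* had a log2 change of -1.48 from the first to the ninth hour (SE 0.129), again without overlap of the treated mice. The slides gave -1.35, -1.36 and -1.78, and the block fit -1.48. *Fas* had one of -1.20 (SE 0.169), from 65 or more in every treated mouse of the first hour to 62.1 or less in the ninth. The slides gave -1.15, -1.18 and -1.25, and the block fit -1.19.

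*Gadd45g* had a log2 change of -0.31 (SE 0.0617), also without overlap of the treated mice of the first and ninth hour. The slides gave -0.34, -0.25 and -0.33, and without slide 1 the probe was not called. For *Bbc3* the change was 0.21 (SE 0.06), from at most 972 to at least 989.7. The slides gave 0.22, 0.10 and 0.33. *Bbc3* was not called without slide 1 or slide 3, without first-hour replicate 1 or with the processed signals of the scanner software.

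Between the fifth and the first hour, 4 of the 12 member probes were called in corticosterone-treated mice, against 0.53% of all probes, a comparison that shares the treated mice of the first hour with that of the ninth hour. *Pmaip1* had a log2 change of -1.10 (SE 0.129), and all treated mice of the fifth hour lay below those of the first. That of *Fas* was -1.14 (SE 0.169), with overlap of 1 fifth-hour mouse. That of *Gadd45g* was -0.34 (SE 0.0617), without overlap, and the probe was not called without slide 1.

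*Cdkn1a* had a log2 change of -1.29 between these hours (SE 0.206). This change differed between the slides, at -0.06 on slide 1, -1.52 on slide 2 and -1.87 on slide 3, and the probe was not called without slide 3. The within-slide changes of *Pmaip1* were -0.99, -0.93 and -1.35, and those of *Fas* were -0.92, -0.94 and -1.47.

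Between the ninth and the fifth hour, 2 of the 12 member probes were called in corticosterone-treated mice, against 0.652% of all probes. *Cdkn1a* had a log2 change of -0.93 (SE 0.206), with -1.86, -0.44 and -0.91 on the slides. It was not called without slide 1, slide 3 or fifth-hour replicate 1. *Bbc3* had one of 0.23 (SE 0.06), with 0.15, 0.16 and 0.37 on the slides. *Bbc3* was called with 12 of the 24 arrays left out in turn and not with the other 12, and it was not called without any 1 of the slides, with processed signals or with an offset of 0 for p values. The change was -0.38 (SE 0.129) for *Pmaip1* and -0.06 (SE 0.169) for *Fas*.

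**Figure D3:**
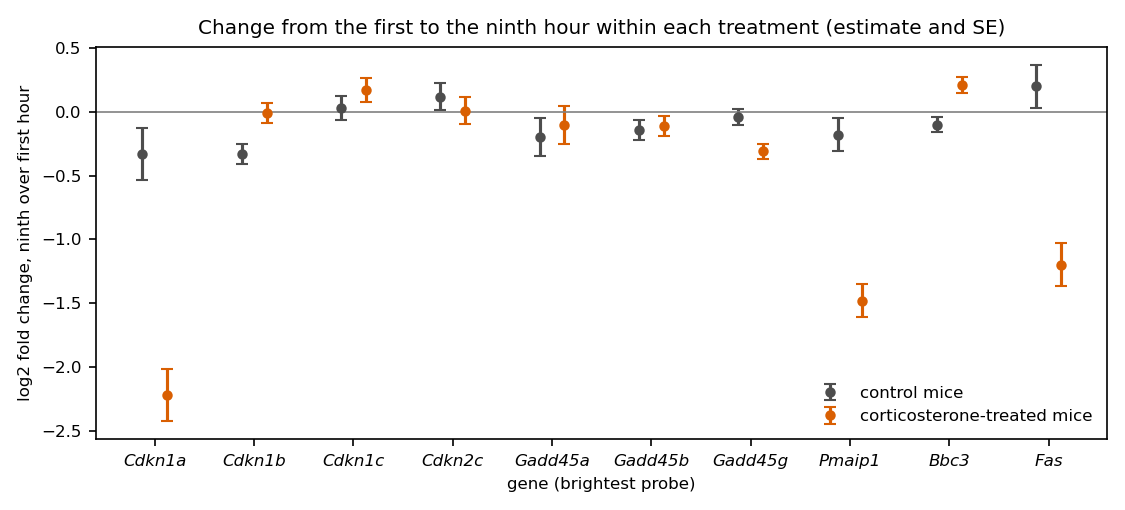
Log2 fold change of the ninth over the first hour for each gene (brighter or single probe), grey for control and orange for corticosterone-treated mice. Points are estimates of the fit and bars their SE, from 8 mice per hour. *Cdkn1a*, *Pmaip1* and *Fas* in treated mice stand at -2.22, -1.48 and -1.20, and *Cdkn1b* in control mice at -0.33.

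Only 1 of the 2 probes of *Cdkn1a* could be measured. The dimmer one (A_55_P1986282) had a mean signal intensity of 24.3, and was well above background in 0 of 8 channels in each of the 6 groups. Its values in the first hour were 16.5 to 34.8 (median 25.8) in control and 19.8 to 26.4 (median 22.2) in corticosterone-treated mice. The dimmer *Fas* probe (A_52_P73385), with a mean of 17.8, was likewise well above background in 0 of 8 channels in each group. In the first hour it gave 12.5 to 33.4 (median 16.6) in control and 7.39 to 23.2 (median 15.6) in treated mice. No fold change is given for signals at this level, and whether the transcripts these probes are annotated to changed was not measurable.

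**Figure D4:**
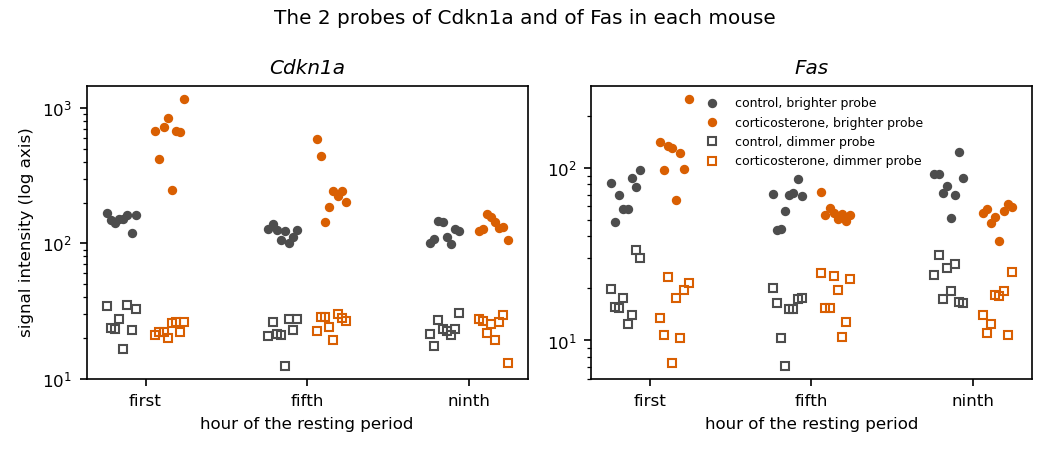
Signal intensity (log axis) of both probes of *Cdkn1a* and of *Fas* in each mouse, by hour. Filled circles are the brighter probe and open squares the dimmer one, grey for control and orange for corticosterone-treated mice. The dimmer probes, with means of 24.3 and 17.8, stay below the brighter ones in every group.

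Across all 24 arrays, the log2 ratio of *Cdkn1a* was most like those of *Tsc22d3* (Pearson r = 0.962), *Map3k6* (0.959), *Fkbp5* (0.956), *Pnpla2* (0.950) and *Tekt4* (0.944) among 22421 probes with a gene name and a signal intensity of 50 or more. With the mean of each hour taken out, these 5 had r between 0.801 and 0.900. Each of these genes stands by its probe with the highest r. For *Tsc22d3* this probe (signal intensity 1337) is not its brightest (4013), which gave the log2 changes named below. The lowest r belonged to *Fgfrl1* (-0.944), *Meox1* (-0.863) and *Pnp* (-0.860), and became -0.807, -0.475 and -0.502 with hour means taken out. Among the members, r with *Cdkn1a* was 0.873 for *Pmaip1*, 0.798 for *Fas*, 0.616 for *Gadd45g*, 0.257 for *Cdkn2c*, 0.037 for *Gadd45b*, -0.014 for *Gadd45a*, -0.093 for *Cdkn1c* and -0.584 for *Bbc3*. With hour means taken out, these became 0.622, 0.319, 0.239, 0.109, 0.170, 0.198, 0.262 and 0.004. *Cdkn1b*, which lacks a value on 1 array, has no r. The ratios share arrays, slides and animals, and r is given without a test.

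Lists of other genes in the same pathways were fitted for corticosterone against control, to place the members beside their partners. The lists were chosen with earlier results of these data known. Genes named from them were picked because limma called them on this contrast at some hour, with the largest changes of their list. Their adjusted p values, from the limma fit, reflect that choice and are no independent support. The median log2 change over all probes was 0.000759, 0.0038 and 0.00329 at the 3 hours, and 17.5, 18.1 and 13.9% of all probes were called. Many lists had a share near these, so such counts are not read as a response of the list, and many counts moved with single processing choices or slides. Of 14 probes of established glucocorticoid-induced genes, 10 were called higher in the first hour (list median 0.45), 4 in the fifth (0.11), and 8 were called lower in the ninth (-0.25). *Tsc22d3*, by its brightest probe, changed by 0.93 in the first hour (adjusted p = 5e-10, higher on 8 of 8 arrays) and by -0.57 in the ninth (adjusted p = 4.9e-05, lower on 8 of 8). Within corticosterone-treated mice, 13 of the 14 probes fell between the first and the ninth hour (list median -0.75), against 3.95% of all probes called.

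Of 32 probes of p53 target genes outside the set, 5 were called higher and 2 lower in the first hour (list median -0.01). *Perp*, a membrane protein gene, changed by 0.58 (SE 0.0918, adjusted p = 4.3e-06) and *Trp53inp1* by 0.45 (SE 0.121, adjusted p = 0.0035), each higher on 8 of 8 arrays. In the fifth hour 1 was higher and 1 lower, and in the ninth 1 was higher and 2 lower. Of 12 probes of the p53 family and its regulators, 1 was higher and 2 lower, 2 higher and 3 lower, and 1 higher and 2 lower at the 3 hours. Some lists share genes, so that *Mdm2* counts both here and among the p53 targets. *Bax*, *Apaf1* and *Tnfrsf10b* likewise count among the p53 targets and in a list of death genes. *Mdm4*, which restrains p53, changed by -0.35, -0.28 and -0.33 (adjusted p of 0.0058, 0.036 and 0.013, lower on 8, 7 and 8 of 8 arrays). *Mdm2*, which marks p53 for degradation, went the other way, by 0.20, 0.14 and 0.04 (adjusted p of 3.6e-05, 0.0024 and 0.44, higher on 8, 8 and 5 of 8 arrays).

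Of 7 probes of the other kinase inhibitors, 3 were lower at each hour (in the ninth, 1 with an offset of 0 for p values), *Cdkn2b* among them in the first (-0.30, adjusted p = 0.023, lower on 6 of 8 arrays). Of 23 probes of cyclins and their kinases, 5 were higher and 2 lower, 1 higher and 4 lower, and 2 higher and 3 lower at the 3 hours. *Ccnd1*, encoding cyclin D1, changed by 0.37 in the ninth hour (SE 0.0738, adjusted p = 0.00024, higher on 8 of 8 arrays). Of 16 Rb and E2f probes, 1 was higher and 1 lower, 1 higher and 2 lower, and 2 higher at the 3 hours. Of 16 probes of proliferation markers, 2, 1 and 1 were higher and 3 were lower at each hour, with *Mcm3* at -0.49 in the first (adjusted p = 6e-06, lower on 8 of 8 arrays).

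Among death genes, 6 of 9 probes of Bcl2 family survival genes were higher in the first hour (list median 0.31). In the fifth hour 2 were higher and in the ninth 3. These 9 probes belong to 4 genes, so the counts are of probes and not of separate genes. By brightest probe, only 2 of the 4 genes qualified as named genes, *Bcl2l1* and *Bcl2l2*. *Bcl2l1*, encoding the survival protein Bcl-xL, changed by 0.43, 0.30 and 0.18 (adjusted p of 8.1e-13, 3.2e-08 and 0.00056), higher on 8 of 8 arrays at each hour. *Bcl2l2* changed by 0.09, 0.08 and 0.11 (adjusted p in limma of 0.043, 0.055 and 0.012, higher on 6, 7 and 8 of 8 arrays). Of 18 probes of Bax-type effectors and other BH3-only genes, 1 was higher and 2 lower, 2 higher and 3 lower, and 4 higher and 1 lower. Of 23 death receptor probes, 3 were higher and 2 lower, 2 higher and 1 lower, and 4 higher, with the ligand *Tnfsf10* at -0.78 in the first hour (adjusted p = 0.0024, lower on 8 of 8 arrays). Of 20 probes of caspases, the apoptosome and its inhibitors, 7 were lower in the first hour, 3 in the fifth and 4 in the ninth, when 1 was higher. Of 15 probes of Gadd45 partner kinases, 3 were higher at each hour and 1, 2 and 2 were lower.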

How the data were processed

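The 10 genes and all lists were chosen with earlier results of these data known. Hippocampal RNA of 48 mice was measured on 24 two-color Agilent arrays. The deposited scanner files hold, per the file headers, a median intensity of the pixels of every spot and of its surroundings for both dyes, read with Agilent Feature Extraction 10.7.3.1 and not normalized. The processed signals of the same deposited files are an intensity after background subtraction and dye normalization. The authors also deposited a log2 ratio for every probe on every array.

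Median intensities were analysed in R 4.3.3 with limma 3.58.1, statmod 1.5.0, the package data.table (version 1.17.8) and jsonlite 2.0.0, and Python 3.11.15 with pandas 2.3.3, numpy 2.4.6 and matplotlib 3.10.9 matched names and drew figures. The normexp background correction used an offset of 50 where p values were computed and 0 where fold changes and signals were, followed by loess normalization within arrays and quantile normalization between arrays. Spots marked as outliers were missing (80 to 276 per array), no spot was saturated, 3671 control spots were removed, and 300 probes were averaged over 10 copies. Of the 12 member probes, 1 lacked a value on 1 array. The separate channel fit of limma had 6 groups (treatment by hour) and an intraspot correlation of 0.285. Adjustment was that of Benjamini and Hochberg, over 56605 probes, and a probe was called at an adjusted p under 0.05. SE is that of the fit, SD is over mice.

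Probes were named through RefSeq transcripts (34566 with 1 gene symbol). All 10 members are named with all their probes, and a gene of a list through its brightest probe. From each list, up to 3 genes with a signal intensity of 50 or more, a call and the largest changes qualified as named genes, besides the 5 most and 3 least like *Cdkn1a*. Probes well above background in none of the channels got no fold change. Promoters came from RefSeq, build GRCm38.p6. The oligodendrocyte marker list is not reported here.

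The authors' table was checked against the log2 ratios computed here, Cy5 over Cy3, and differed from loess normalization alone by a median of 0.00119 and from the quantile version by 0.00884. No 2 arrays held identical values (0 pairs). The steps were tested on simulated data. Alternatives were other offsets, no background correction, median centring, Aquantile, the processed signals, outlier spots kept, slide as a block, each slide or array left out, and the authors' log2 ratios.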

Additional observations from a re-analysis of the deposited data

Results flagged for a closer look

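A sample stood far from the others of its group in 6 of 108 groups examined, and chance flags about 1 in 20 groups. The dimmer *Cdkn1a* probe, not well above background, read 12.4 in 1 control mouse of the fifth hour, where the others read 20.6 to 27.8. *Fas* was 72.3 in corticosterone-treated replicate 1 of the fifth hour, and 48.9 to 58.4 in the others. *Gadd45a* was lowest in fifth-hour replicate 7 in both channels of that array on slide 3. It read 94.1 in the control mouse (others 140 to 189) and 56.6 in the corticosterone-treated mouse (others 130 to 197). That array had the most outlier spots of all arrays (276) and the lowest share of red spots well above background (64.01%). Whether this bears on the 2 values was not tested. *Pmaip1* was 2054 in corticosterone-treated replicate 8 of the first hour, and 547 to 991 in the others. The log2 ratio of *Gadd45b* was -0.20 on fifth-hour replicate 8, and 0.11 to 0.24 on the others.

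The log2 ratio of *Fas* was positive on all 8 arrays of the first hour and negative on all 8 of the ninth, with means of 0.79 and -0.61 and a difference of -1.40. This difference was not tested.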

How the results depend on the processing

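The counts of called members stayed within 1.5 times their value in 93 cases and moved further in 12. Among values of single genes, 439 kept their direction and call or moved by less than 1 SD, 17 lost the call, 4 moved further and 2 called values changed sign. Log2 ratios of corticosterone over control close to 0 also crossed 0 within 1 SD under single alternatives, which took *Fas* in the fifth hour from -0.17 to 0.04, *Gadd45a* from -0.11 to 0.08 in the fifth and from 0.01 to -0.15 in the ninth, and, in the ninth, *Cdkn1c* from 0.03 to -0.16, *Cdkn2c* from 0.16 to -0.0046 and *Pmaip1* from -0.03 to 0.0041. *Bbc3* in the fifth hour went from 0.02 to -0.02. Of 12 member probes, 2 were called between the ninth and the fifth hour in corticosterone-treated mice, and 1 was called with an offset of 0 for p values, 1 with processed signals, 0 without slide 1, 1 without slide 2 and 0 without slide 3. The share called of all probes went from 0.652% to 0.389, 0.579, 0.0194, 0.238 and 0.212% in these settings. The 1 call between the ninth and the first hour in control mice became 0 with outlier spots kept and 0 without each of slides 1, 2 and 3, while the share of all probes went from 0.518% to 0.541% and to 0.00883, 0.352 and 0.246%. Without slide 1, the calls for corticosterone against control went from 3 to 1 in the fifth hour and from 4 to 1 in the ninth, and those between the ninth and the first hour in treated mice from 5 to 3. The share of all probes went from 18.1 to 10.3%, from 13.9 to 3.07% and from 3.95 to 1.27% in these. Whether the members differed from all probes in this was not tested, and nothing is read from the drop. Fewer arrays were fitted where a slide was left out, and slide 1 was also scanned on another day. The cause of the changes was not tested for any of these settings. The fifth-hour log2 ratio of *Cdkn1b*, 0.23, reversed to -0.0045 with outlier spots kept and to -0.0045 with the authors' log2 ratios, which keep that spot.

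With each array left out in turn, the counts ranged from 3 to 4, 1 to 4 and 3 to 4 for corticosterone against control in the first, the fifth and the ninth hour, the 1 coming without fifth-hour replicate 2. They ranged from 0 to 1 in control mice between the ninth and the first hour, and were 0 to 0 in both other control comparisons. In treated mice they ranged from 4 to 5 between the ninth and the first, 4 to 4 between the fifth and the first, and 1 to 3 between the ninth and the fifth hour. The share of all probes was not kept for these fits, so nothing is read from the ranges. *Cdkn1b* in control mice lost its call without first-hour replicate 3 or ninth-hour replicate 3, 4, 6 or 7. *Bbc3* between the ninth and the fifth hour lost it without any ninth-hour array or fifth-hour replicate 3, 4, 7 or 8. The log2 ratio of *Fas*, 0.79 in the first and -0.61 in the ninth hour, lay between 0.50 and 1.03 and between -0.78 and -0.35 over the alternatives. It was 0.50 and -0.35 with an offset of 50, 0.58 and -0.38 without background correction, and 1.03 and -0.78 with processed signals, and the cause was not tested. Counts of the other lists also moved by over 1.5 times. With p values at an offset of 0, the other kinase inhibitors called in the ninth hour went from 3 to 1 and the cyclins with their kinases from 5 to 3. Also in the ninth hour, glucocorticoid-induced genes went from 8 to 3 without slide 1. No paired analysis was possible between hours because each mouse was killed at 1 hour.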
